A study of Mus musculus with 6 samples.

Results

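Lingo2, Nxph1, Lrrc4, Plppr1, Cadps2, Unc13b, Nkain3 and Clvs1 are genes of nerve cell contact, vesicle release and axon growth. They were taken by name from the count files, 8 of 53546 gene features, and followed in every library. The study set 3 control libraries against 3 libraries of spinal cord injury, all from C57BL/6 mice. Total RNA was sequenced; the labels name both the spinal cord and the disc between vertebrae as tissue, while the series text speaks of retina of mice 21 days old. The labels of the samples give no age, sex or time after injury, and no label ties a library to an animal of its own. The p-values therefore reflect the spread between libraries alone, and that spread may be technical. Libraries are named by their label and replicate number, and values listed for a group run from replicate 1 to 3. Values are given as CPM, the counts of a gene per 1000000 counts of its library, whose totals ran from 2385703 to 3921627.

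A synapse is built by adhesion proteins that reach across the cleft and by secreted ligands that bind them, while a separate set of cytosolic factors makes transmitter vesicles ready to fuse. In the spinal cord, families with leucine-rich repeats are also known from axon growth, since a relative of Lingo2 sits in the receptor complex through which myelin proteins halt growth cones. Several proteins of vesicle priming are also made outside the nervous system, among them a broadly expressed form of the Unc13b protein.

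The names of most features in these files do not match the exons of the gene of that name in the mouse build GRCm38, but those of all 8 genes do. For each of them at least 90% of the exonic bases, the rule for saying that a name holds, lay on exons of the same gene in the GENCODE M21 annotation. On chromosome 4 the spans in the files were 9269293 to 9451691 for Clvs1, 20118874 to 20778866 for Nkain3, 35706647 to 36951747 for Lingo2, 43058953 to 43264871 for Unc13b and 49059273 to 49340259 for Plppr1, the same as in GRCm38. On chromosome 6 Nxph1 spanned 8948431 to 9249032, also the same. Cadps2 (23262772 to 23839420) and Lrrc4 (28661830 to 28831746) each began 1 base before their GRCm38 start, and 99.6% and 99.9% of their exonic bases lay on their own exons.

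Control libraries 1 and 2 stood apart from the rest over all features, not only in these genes. Across the features tested, Pearson r of log2 CPM was 0.948 to 0.958 between control 3 and each injury library, but 0.430 between controls 3 and 1 and 0.417 between controls 3 and 2, which describes features and not independent replicates. The 2 glial marker genes whose names hold, Ptprz1 and Gpr37, summed to 10.8 and 5.10 CPM in controls 1 and 2 and to between 2724 and 2980 CPM in the other 4 libraries. The 8 genes listed for epithelial transport summed to 14869 and 3291 CPM in controls 1 and 2 and to between 5.03 and 9.83 CPM elsewhere, and 3 of them, Slc7a13, Aqp3 and Acnat2, were at 0 in control 3 and all injury libraries. The connective tissue pair Col1a2 and Col15a1 summed to 88.5, 2724 and 123 CPM across the controls in order and to 164, 135 and 418 CPM in injury 1, 2 and 3. The 5 leukocyte genes whose names hold summed to 234, 449 and 136 CPM in the controls and 137 to 207 CPM after injury, and the muscle pair Tpm2 and Lmod2 to 20.02, 138 and 49.7 CPM and 40.4 to 91.0 CPM. The part of these differences in the results below was not tested. Disc markers such as Acan, Col2a1 and T could not be read because their names do not hold. In bulk RNA, fewer cells of a type and less RNA per cell cannot be told apart.

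Promoters are shown for 4 of the genes, of 3 kinds of pattern. Lingo2 and Nxph1 were almost without counts in controls 1 and 2, Cadps2 was present in all libraries, and Unc13b was higher in those controls. Lrrc4 and Plppr1, which had clear counts in those controls but were higher elsewhere, are not shown. The sequences are RefSeq's, on GRCm38.p6, and each runs 5′ to 3′ on the gene's strand from 250 bases before to 50 bases after an annotated start. Of the 8 genes, 6 had an entry. Lingo2 had 2, of which the one with motif matches is shown, chosen after both were seen. Both lie inside the span of Lingo2, away from its 5′ end at 36951747 on the minus strand. The window of Nxph1 also begins inside its span, while those of Cadps2 and Unc13b cover the 5′ end of theirs. Capitals mark matches on either strand to 7 motifs: the GC box GGGCGG, the CCAAT box CCAAT, the TATA box TATAAA, the cAMP response element TGACGTCA, the E-box CACGTG, and the left part TCAGCACC and right part GGACAGC of RE1, the element bound by the neuronal gene silencer REST.
Lingo2, chr4:35845155-35845454, minus strand: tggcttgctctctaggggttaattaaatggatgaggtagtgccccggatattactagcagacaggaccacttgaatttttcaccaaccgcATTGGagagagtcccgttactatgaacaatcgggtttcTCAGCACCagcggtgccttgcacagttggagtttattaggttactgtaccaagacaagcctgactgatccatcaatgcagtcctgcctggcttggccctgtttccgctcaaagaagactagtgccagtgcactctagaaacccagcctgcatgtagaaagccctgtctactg
Nxph1, chr6:8949769-8950068, plus strand: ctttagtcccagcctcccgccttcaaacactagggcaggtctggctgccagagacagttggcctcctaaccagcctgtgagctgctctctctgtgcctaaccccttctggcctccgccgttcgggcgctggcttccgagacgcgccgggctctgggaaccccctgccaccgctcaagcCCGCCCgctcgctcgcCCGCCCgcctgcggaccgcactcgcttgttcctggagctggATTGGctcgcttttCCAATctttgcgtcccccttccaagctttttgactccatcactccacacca
Cadps2, chr6:23839372-23839671, minus strand: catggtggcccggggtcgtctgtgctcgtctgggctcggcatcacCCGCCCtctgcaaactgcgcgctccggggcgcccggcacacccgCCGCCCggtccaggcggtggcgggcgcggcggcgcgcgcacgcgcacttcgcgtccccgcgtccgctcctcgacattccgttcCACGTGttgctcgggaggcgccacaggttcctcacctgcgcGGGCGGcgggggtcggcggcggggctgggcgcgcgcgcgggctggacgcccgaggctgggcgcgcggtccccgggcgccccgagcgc
Unc13b, chr4:43058703-43059002, plus strand: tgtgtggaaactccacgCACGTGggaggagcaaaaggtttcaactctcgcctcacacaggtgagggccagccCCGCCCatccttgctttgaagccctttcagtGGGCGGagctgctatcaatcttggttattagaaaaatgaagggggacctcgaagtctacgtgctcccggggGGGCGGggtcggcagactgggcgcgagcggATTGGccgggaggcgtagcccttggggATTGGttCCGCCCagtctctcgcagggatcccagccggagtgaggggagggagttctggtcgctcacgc

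The promoters of Unc13b and Cadps2 held 4 and 3 GC boxes and 1 E-box each, and that of Unc13b also 2 CCAAT boxes. That of Nxph1 held 2 GC boxes and 2 CCAAT boxes, and the one shown for Lingo2 held no GC box, 1 CCAAT box and 1 left part of RE1 without the right part. The other entry of Lingo2, chr4:36718914-36719213 on the minus strand, held none of the 7 motifs and 0 CG steps, at a GC content of 26.3%. In the sequences shown, GC content was 62.0%, 79.7%, 64.0% and 49.3% for Unc13b, Cadps2, Nxph1 and Lingo2, and the number of CG steps 20, 54, 21 and 6, against a median of 7 over all promoters. Among all 32851 promoters of this length, 35.7% held a GC box, 37.4% a CCAAT box, 13.6% a TATA box, 1.79% the cAMP response element, 7.15% the E-box, and 1.65% and 6.56% the left and right parts of RE1. None of the 4 shown held a TATA box or a cAMP response element by these letters. No matches overlapped each other. These are descriptions of letters in a window and say nothing of binding.

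Injury was set against control to ask how spinal cord injury bears on these transcripts. Of the 8 genes, 6 were higher in control 3 and all injury libraries than in controls 1 and 2, 1 (Unc13b) was lower, and Cadps2 was neither. Among all 12646 features tested, 34.1% were higher in this way and 35.3% lower. Among the 461 tested features whose names hold, the shares were 56.8% and 17.6%. Control 3 lay within the range of the injury libraries for 5 genes, above it for Lingo2 and Unc13b, and below it for Lrrc4.

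**Figure D1:**
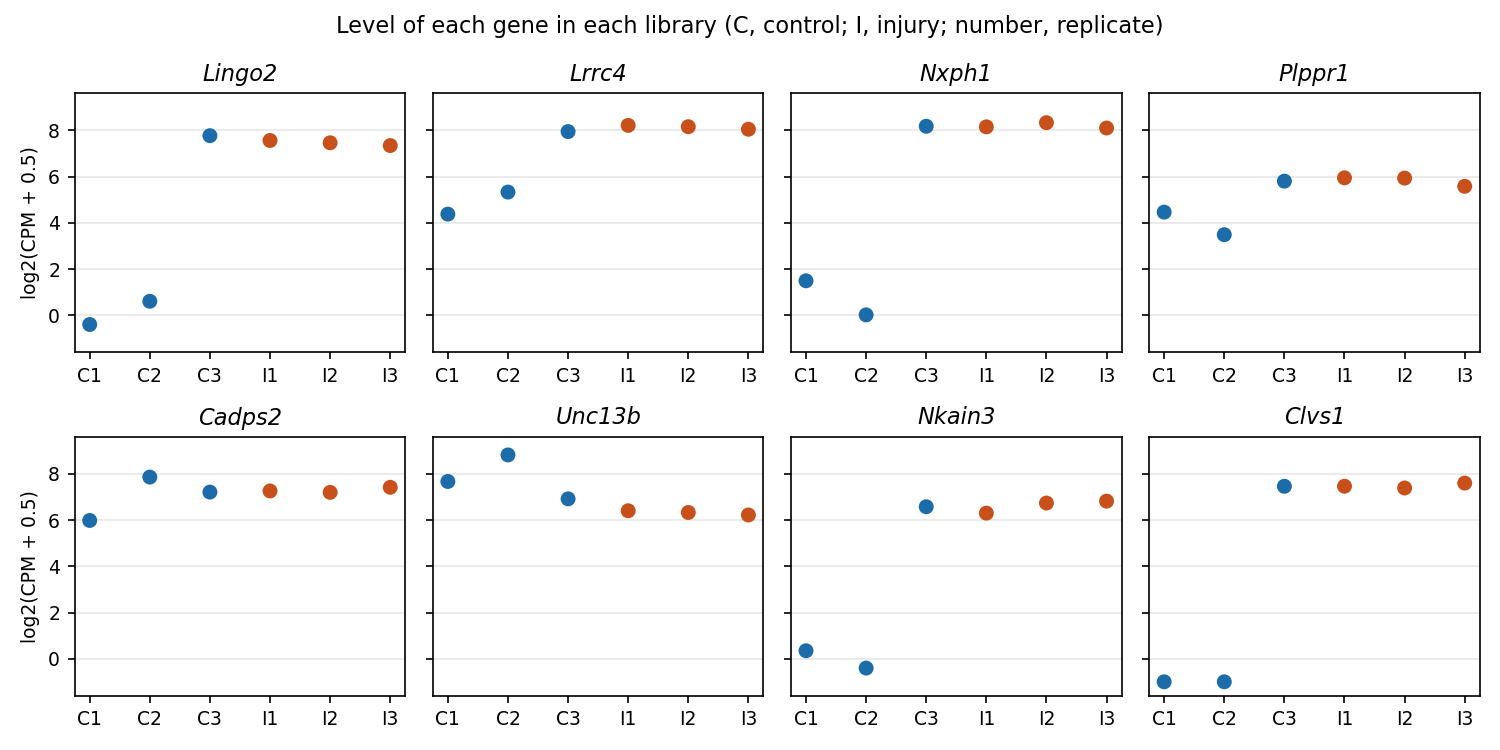
Level of each of the 8 genes in each of the 6 libraries as log2(CPM + 0.5), with control libraries in blue and injury libraries in orange, 1 point per library. Control 3 lies within the injury range in the panels of Nxph1, Plppr1, Cadps2, Nkain3 and Clvs1, and Unc13b is the gene with its highest points in controls 1 and 2 (204 and 452 CPM).

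Lingo2, a membrane protein with leucine-rich repeats and an immunoglobulin domain, had 0.257, 1.02 and 218 CPM across the controls in order and 189, 176 and 162 CPM across the injury libraries. Those of controls 1 and 2 rest on 1 and 4 counts, so Lingo2 was near the limit of detection there, and control 3 lay above every injury library. The injury libraries averaged 176 ± 13.4 CPM (SD, n = 3). Summed over libraries, injury stood 276-fold above controls 1 and 2 (95% exact interval 118 to 852, counting error only) and below control 3, at a ratio of 0.809 (0.734 to 0.893).

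Nxph1, a secreted glycoprotein that binds neurexins on the presynaptic side, had 2.31, 0.510 and 289.8 CPM across the controls in order. After injury it had 285, 323 and 275 CPM (294 ± 25.3, SD, n = 3). Control 3 fell inside the injury range, and controls 1 and 2 held 9 and 2 counts. The ratio of injury to controls 1 and 2 was 210-fold by summed counts (117 to 421), and that of injury to control 3 was 1.02 (0.938 to 1.11).

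Lrrc4, also called netrin-G ligand 2, an adhesion protein of the postsynaptic membrane, kept a clear level in controls 1 and 2. Its levels were 20.3, 39.8 and 247 CPM across the controls in order and 298, 286 and 265 CPM across the injury libraries. Every injury library was above every control library, as for 13.7% of all features tested. The ratio of injury to controls 1 and 2 was 9.45 (8.26 to 10.8), far smaller than for Lingo2 and Nxph1, and that to control 3 was 1.15 (1.05 to 1.26). Lrrc4 lies within the span of Snd1, a widely expressed gene on the opposite strand, with 0 shared exonic bases. The counts ignored strand, so read pairs from Snd1 introns that fall on Lrrc4 exons cannot be told apart from Lrrc4. Snd1 itself had 248, 315 and 228 CPM in the controls and 312, 275 and 271 CPM after injury. Gm37940, also on the opposite strand in this span with 0 shared exonic bases, had 22.3, 37.2 and 12.6 CPM in the controls. After injury Gm37940 had 13.8, 8.43 and 10.5 CPM. The part of opposite-strand reads in the level of Lrrc4, also in controls 1 and 2, was not tested.

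Plppr1, a membrane protein of the phospholipid phosphatase-related family known to drive filopodia and neurite growth, had 21.6, 10.7 and 55.4 CPM across the controls in order. In injury 1, 2 and 3 it had 61.3, 60.8 and 47.4 CPM (56.5 ± 7.88, SD, n = 3). Among the genes higher in control 3 and all injury libraries than in controls 1 and 2, it had the smallest contrast. Injury stood 3.54-fold above controls 1 and 2 (2.90 to 4.34), and control 3 was inside the injury range. Controls 1 and 2 differed from each other in the opposite sense to Lrrc4, with control 2 at 0.497 of control 1 for Plppr1 (0.335 to 0.728) and at 1.96 of it for Lrrc4 (1.49 to 2.61).

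Cadps2 primes dense-core vesicles, the carriers of neuropeptides and neurotrophins, for release. Its levels were 62.9, 233 and 148 CPM across the controls in order and 153, 147 and 171 CPM across the injury libraries (157 ± 12.6, SD, n = 3). The lowest and the highest values were both in control libraries, so the groups overlapped fully. Control 2 stood 3.70-fold above control 1 (3.21 to 4.28), in a pair of libraries that also differed in Col1a2 (46.2 and 1573 CPM) and Col15a1 (42.3 and 1151 CPM). The part of that difference in the level of Cadps2 was not tested.

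Unc13b, the Munc13-2 factor that readies synaptic vesicles for fusion, ran the other way. Its levels were 204, 452 and 121 CPM across the controls in order and 84.3, 80.1 and 74.2 CPM across the injury libraries (79.5 ± 5.08, SD, n = 3). Every injury library was below every control library, as for 25.4% of all features tested. Summed counts were 4.11-fold lower after injury than in controls 1 and 2 (3.77 to 4.49) and 1.51-fold lower than in control 3 (1.32 to 1.73). As a ratio, control 3 stood farther from the injury mean for Unc13b than for any other of the 8, at 1.52 against 1.24 for Lingo2, the next.

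Nkain3, a small membrane protein of a family that binds the sodium pump, had 0.770, 0.255 and 95.2 CPM across the controls in order. After injury it had 78.5, 106 and 113 CPM (99.2 ± 18.2, SD, n = 3), the widest relative spread among the injury libraries, with a highest value 1.44 times the lowest. Controls 1 and 2 held 3 and 1 counts. The ratio of injury to these controls was 192 (74.7 to 707), and to control 3 it was 1.03 (0.894 to 1.19).

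Clvs1 encodes clavesin 1, a lipid-binding protein of clathrin-coated vesicles in neurons. It had 0 counts in controls 1 and 2, which allows up to 0.384 CPM over both, and control 3 stood at 176 CPM. The injury libraries had 177, 168 and 194 CPM (179 ± 13.5, SD, n = 3), at least 465-fold higher than controls 1 and 2, taking 3 counts over both libraries as the floor, and 1.01 times control 3 (0.911 to 1.13). It was the gene of the 8 with no count at all in both of these controls. Of its 7566 exonic bases 2302 (30.4%) are shared with exons of Asph on the opposite strand, and read pairs that overlap both genes were not counted for either. Asph had 126, 243 and 626 CPM in the controls and 620, 721 and 671 CPM after injury. How many pairs of Clvs1 were lost in this way was not tested.

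Levels of different genes were compared per kilobase (kb) of exon, since the 8 differ in exonic length from 3996 bases for Lrrc4 to 22746 bases for Unc13b. In the injury libraries the order from the top was Lrrc4 at 70.8 ± 4.15 CPM per kb (SD, n = 3), Nxph1 at 61.9 ± 5.31, Clvs1 at 23.7 ± 1.79, Lingo2 at 21.2 ± 1.61, Cadps2 at 16.4 ± 1.31, Nkain3 at 14.3 ± 2.63, Plppr1 at 7.77 ± 1.08 and Unc13b at 3.50 ± 0.223 CPM per kb. Each injury library taken singly had this same order, though Cadps2 and Nkain3 were both at 15.3 CPM per kb in injury 2. Across the injury libraries the ranges of Lrrc4 and Nxph1 overlapped, as did those of Clvs1 and Lingo2 and those of Cadps2 and Nkain3. The other neighbours in this order were separate. Control 3 had the same order except that Lingo2 (26.3 CPM per kb) came before Clvs1 (23.3). The place of Clvs1 depends on the length used, since pairs on the bases shared with Asph were not counted. Over its 5264 unshared bases, a length tried after the data were seen, Clvs1 had 34.1 ± 2.57 CPM per kb after injury (SD, n = 3) and 33.5 in control 3. That puts it above Lingo2 in both, with an injury range (31.8 to 36.9) apart from that of Lingo2 (19.6 to 22.8). Controls 1 and 2 had another order. Unc13b (8.96 CPM per kb) led Cadps2 (6.57) and Lrrc4 (5.07) in control 1, and Cadps2 (24.3) led Unc13b (19.9) and Lrrc4 (9.95) in control 2. Unc13b and Cadps2 together made 64.2% and 79.1% of the 8 genes' summed CPM per kb in controls 1 and 2, 9.69% in control 3 and 8.37% to 9.91% after injury. Lingo2, Nxph1, Nkain3 and Clvs1 together made 2.59% and 0.478% in controls 1 and 2, 57.9% in control 3 and 53.3% to 56.2% after injury. These shares of a length-scaled sum use all exonic bases and are descriptions of single libraries.

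**Figure D2:**
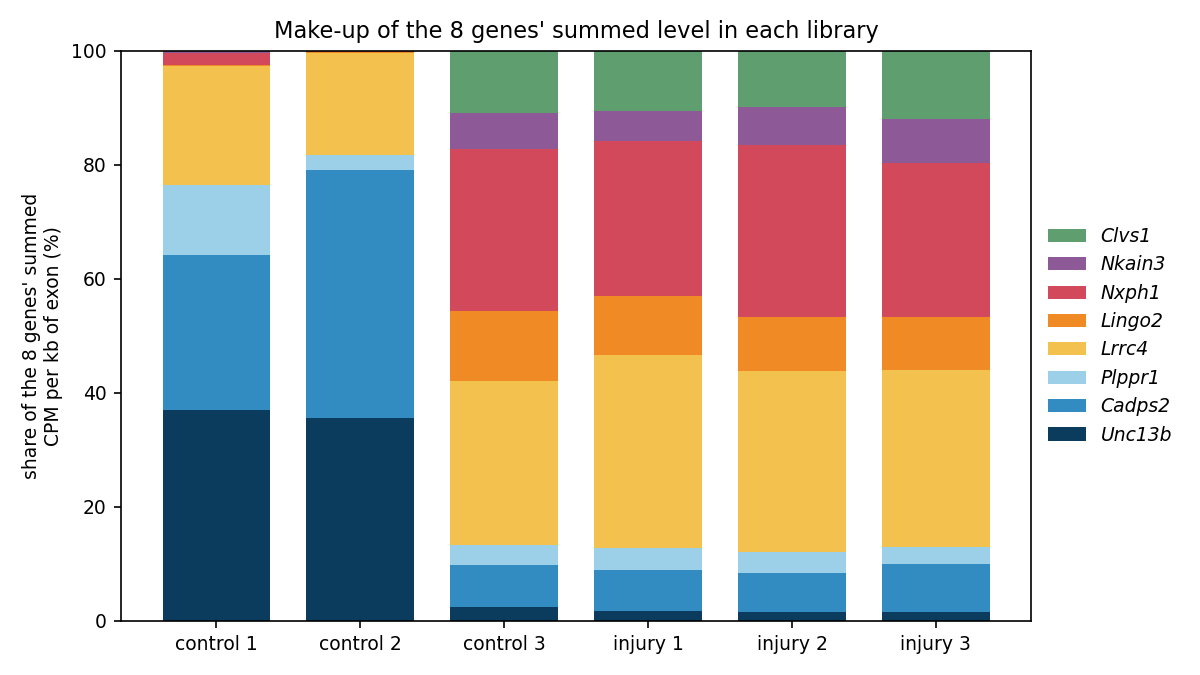
Share of each gene in the summed CPM per kb of exon of the 8 genes, in percent, 1 bar per library. The priming factors Unc13b and Cadps2, in dark and mid blue, fill 64.2% and 79.1% of the bars of controls 1 and 2 and 8.37% to 9.91% of those of control 3 and the injury libraries.

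With all 6 libraries, none of the 8 genes passed in edgeR's quasi-likelihood test at a Benjamini-Hochberg adjusted p of 0.05, and 0% of the 12646 features tested did. The test by edgeR had 3245 features and 1 of the 8 genes at an unadjusted p under 0.05. DESeq2 called 1503 features. It called none of Plppr1, Cadps2, Unc13b and Clvs1, and gave no p for the other 4 (Lingo2, Nxph1, Lrrc4 and Nkain3). Limma-voom called 0 features. It had 3887 of the 12646 features tested and 7 of the 8 genes at an unadjusted p under 0.05 (adjusted p 0.157 or above). By edgeR, the log2 fold change was largest for Nkain3 at 1.79 (SE 1.73, edgeR adjusted p 0.482), with Clvs1, Nxph1, Lrrc4, Lingo2, Plppr1 and Cadps2 at 1.76, 1.74, 1.63, 1.41, 1.06 and 0.34. Unc13b had -1.47 (SE 0.46, edgeR adjusted p 0.129), the smallest adjusted p of the 8. The sizes depend on the tool: limma-voom on the same 6 libraries gave log2 fold changes of 8.21 for Clvs1 (SE 1.88), 6.14 for Lingo2, 6.06 for Nkain3, 5.89 for Nxph1, 2.46 for Lrrc4 and 1.54 for Plppr1. It gave 0.45 for Cadps2 and -1.30 for Unc13b, near the values by edgeR. The control means mix unlike libraries, such as 97.6 ± 167 CPM for Nxph1 (SD, n = 3), whose SD exceeds the mean. In limma-voom with sample quality weights, which gives each library its own weight, 7 of the 8 passed, 6 higher and Unc13b lower, and so did 7042 features. Its log2 fold changes of 7.40 for Lingo2 and 7.94 for Nxph1 lay near those without control 3 (8.54 and 8.09). Without controls 1 and 2 the values were -0.19 and 0.14. Cadps2, at 0.34, lay nearer to its value without controls 1 and 2 (0.21) than to that without control 3 (0.72). Which libraries got less weight was not tested.

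Without control 3, which sets controls 1 and 2 against the injury libraries, 7 of the 8 passed, and so did 66.8% of all features tested. In the injury libraries 6 were higher and Unc13b was lower than in controls 1 and 2. Of all 15320 features tested 30.2% were higher and 36.6% lower, and of the 518 tested features whose names hold 53.5% and 19.1%. Against these controls Lingo2 had a log2 fold change of 8.54 (SE 0.41, edgeR adjusted p 8.98e-05) and Nxph1 of 8.09 (SE 0.68). Nkain3 had 7.97 (SE 0.56), Lrrc4 3.78 (SE 0.27) and Plppr1 2.19 (SE 0.48, edgeR adjusted p 0.00706). Unc13b had -1.48 (SE 0.25, edgeR adjusted p 0.00259), and Cadps2 had 0.72 (SE 0.40, edgeR adjusted p 0.150) and did not pass. The fit for Clvs1, which had 0 counts in both controls, gave an edgeR adjusted p of 1.09e-04, and its fitted fold depends on a prior count. The median log2 fold change was 5.87 over the 8 genes, -0.20 over all features tested and 1.05 over those whose names hold.

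Without controls 1 and 2, which leaves control 3 alone against the injury libraries and assumes that it varies as they do, none of the 8 passed, and 6.78% of the 13857 features tested did (1.05% higher and 5.72% lower; 1.24% and 0.83% of the 482 whose names hold). Unc13b was the nearest, at a log2 fold change of -0.48 (SE 0.16, edgeR adjusted p 0.0705), followed by Lrrc4 at 0.32 (SE 0.16, edgeR adjusted p 0.222). The other six lay between -0.19 (SE 0.16) for Lingo2 and 0.21 (SE 0.17) for Cadps2. The change of Unc13b was the largest in size of the 8 genes in this fit. A p that misses the threshold does not show that the levels were alike. The fits share the injury libraries, so their values are set side by side and not correlated.

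**Figure D3:**
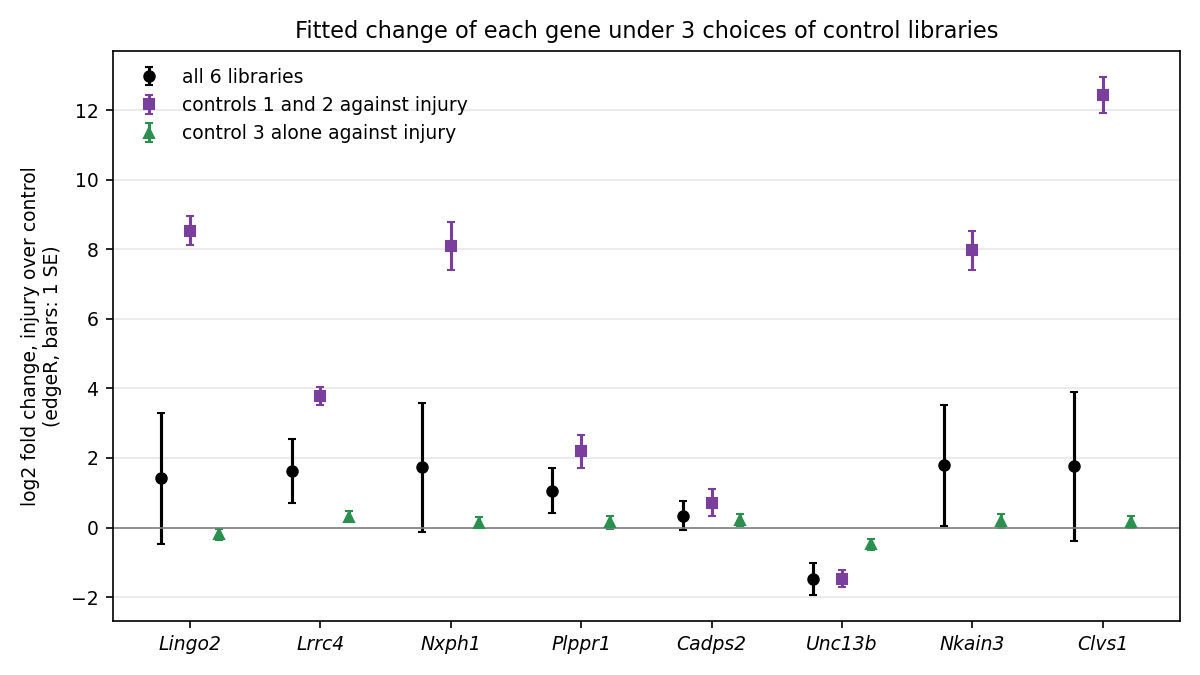
Fitted log2 fold change of injury over control for each gene with bars of 1 SE (edgeR), with all 6 libraries (circles), without control 3 (squares) and without controls 1 and 2 (triangles). Squares of the genes that passed as higher without control 3 reach from 2.19 for Plppr1 upward. The triangles lie between -0.48 and 0.32, and Unc13b is below 0 in all 3. The square of Clvs1 rests on 0 counts in its controls and is no measure of size.

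Other genes of these pathways were taken from 6 lists: leucine-rich repeat and neurexin-linked organisers (A), vesicle priming and release (B), axon growth and guidance (C), NKAIN proteins and sodium pump subunits (D), clavesins and clathrin coat (E), and receptors, channels and signalling proteins of synapses (F). Beside the 8 they hold 147 genes, of which 25 have names that hold and 23 were tested. Without control 3, 21 of the 23 were higher in the injury libraries and 0 lower, against 53.5% and 19.1% of tested features whose names hold. With all 6 libraries, and without controls 1 and 2, none passed by edgeR. The median log2 fold change over the 23 was 1.62 with all 6 libraries, 6.56 without control 3 and 0.17 without controls 1 and 2, where all features tested had -0.04, -0.20 and -0.03 and tested features whose names hold 0.65, 1.05 and 0.18. List F was drawn up with the positions where names hold in mind, and no list is independent of earlier results.

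In the priming list, Ica1, a protein of secretory vesicles, had 41.8, 86.2 and 228 CPM across the controls in order and 211, 222 and 224 CPM across the injury libraries. Stx17, a membrane fusion protein of autophagy, had 131, 134 and 199 CPM in the controls and 190.3, 208 and 193 CPM after injury. For both, controls 1 and 2 lay below the other 4 libraries. Both were higher in the injury libraries without control 3, by log2 fold changes of 2.33 and 1.04 (edgeR adjusted p 6.63e-04 and 0.0111). In that fit 2 of the 4 tested genes of this list were thus higher, Unc13b was lower and Cadps2 did not pass. The organiser list had 3 tested genes, Lingo2, Lrrc4 and Nxph1 themselves.

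In the axon growth list, Cntfr, the receptor for ciliary neurotrophic factor, had 28.2, 19.1 and 204 CPM in the controls and 259.8, 260.2 and 304 CPM after injury. Tmeff1, a membrane protein with follistatin domains, had 1.28, 16.8 and 515 CPM and then 496, 586 and 536 CPM. Both had control 3 far nearer to injury than to the other controls. For Epha7, an ephrin receptor of axon guidance, controls 1 and 2 stood at 3.85 and 52.8 CPM and the other 4 libraries at 78.4 to 117 CPM. Wasl, which starts actin branching, was abundant in all libraries, with 565, 330.2 and 650.4 CPM in the controls and 650.4, 769 and 791 CPM after injury, and did not pass without control 3 (log2 fold change 1.11, SE 0.43, edgeR adjusted p 0.0552). Igfbpl1 stayed at or below 2.75 CPM and was not tested. Clta, the clathrin light chain a of list E, had 155, 162 and 626 CPM in the controls and 759, 753 and 736 CPM after injury. Clta thus had counts in controls 1 and 2, where Clvs1 had none.

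Of the 17 genes of list F, Gabrr1 and Gabrr2, subunits of GABA receptors, stayed at or below 10.3 CPM. Calb1, a calcium buffer, was as high in control 1 (249 CPM) as in control 3 and after injury (216 to 252 CPM), and lower in control 2 (78.5 CPM). Ppp1r9a and Cttnbp2, which bind actin regulators in dendritic spines, stood at 109 and 54.9 CPM in control 1, at 408 and 117 CPM in control 2, and at 1556 and 273 CPM in control 3. The others, Gabbr2, Grin3a, Grm8, Cnr1, Frrs1l, Kcnd2, Kcns2, Phf24, Dync1i1, Penk, Tac1 and Necab1, were at or below 18.6 CPM in controls 1 and 2 and at or above 46.8 CPM in the other 4 libraries. Of these other genes of lists A to F, 23 of 25 were higher in control 3 and all injury libraries than in controls 1 and 2, 0 were lower, and Gabrr1 and Calb1 were neither.

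**Figure D4:**
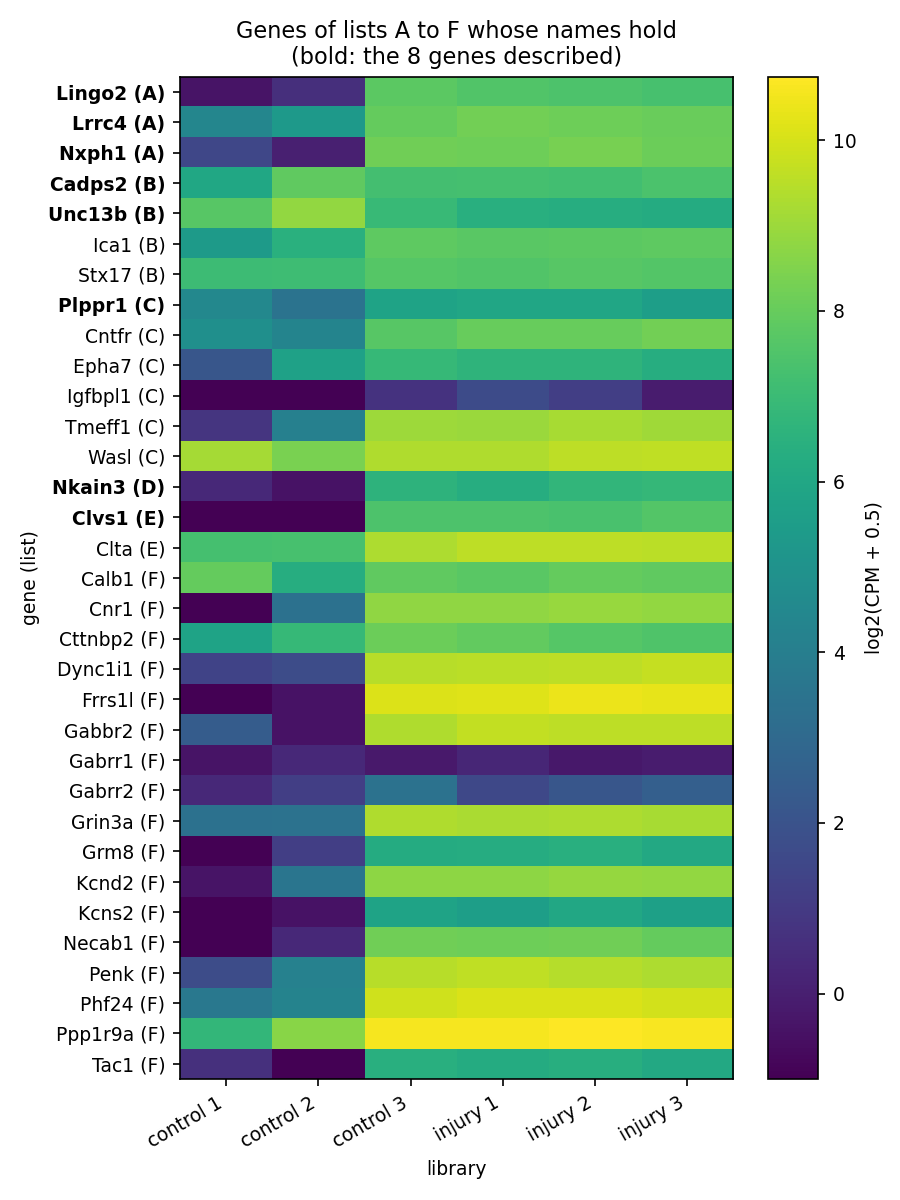
Level of the 33 genes of lists A to F whose names hold, as log2(CPM + 0.5), with genes in rows (list letter in brackets, the 8 genes described in bold) and libraries in columns. Dark cells for most rows fall in controls 1 and 2, and Unc13b is the row brighter in both of these than in the other 4 libraries.

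The genes most like the 8 in pattern were taken from 368 other features whose names hold and which averaged at least 20 CPM. Likeness was the root mean square difference between the log2(CPM + 0.5) profile over the 6 libraries, centred on its own mean, and the mean centred profile of the 8. The nearest were Gpr85 (0.22 on the log2 scale), Asns (0.28), Pgap4 (0.33), Pdp1 (0.36), Mest (0.38) and Alg2 (0.41). Gpr85, an orphan receptor of brain, had 4.36, 7.90 and 149 CPM across the controls and 138, 151 and 141 CPM across the injury libraries. Asns, the asparagine synthetase, had 37.2, 28.0 and 424 CPM in the controls and 425, 498 and 493 CPM after injury. In the mean profile control 3 lies next to the injury libraries, so the same place of control 3 in both genes follows from how they were chosen. That profile averages unlike members: over the 6 libraries Lingo2 and Clvs1 differed by 0.60 on this scale and Lingo2 and Unc13b by 4.35.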

How the data were processed

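Read pairs per gene name were counted in 3 control libraries and 3 of spinal cord injury, grouped by the sample group label with replicate numbers from the titles. The deposited counts come from featureCounts 2.0.1, per the file headers. It was run on exons grouped by gene name, counted only pairs whose ends both mapped to 1 chromosome, ignored strand, and dropped pairs that mapped to several places or to several genes. Bowtie 0.12.2, mm8 and mm9 appear in the submitters' processing notes; the aligner and build behind these counts are not given in the sources used here. A series-wide table was not used.

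Exon coordinates were set against GENCODE M21 (GRCm38) without conversion; 1755 of 53546 features had at least 90% of exonic bases on their own gene (or a synonym of a single RefSeq record).

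The test was edgeR 4.0.16 (R 4.3.3): TMM scaling, filterByExpr, quasi-likelihood F test over all 6 libraries, no covariate, Benjamini-Hochberg adjustment over all features tested, calls at 0.05. SEs come from the F statistic. CPM divide by the library's total, whereas fitted changes use TMM. Ratios of summed counts carry 95% exact conditional binomial intervals, for counting error only, since the reads have no molecular identifiers. Alternatives were other scalings and filters, DESeq2 1.42.0, limma-voom (limma 3.58.1) with and without sample quality weights, a replicate block, each library left out, controls 1 and 2 left out, and only features whose names hold. The pipeline was tested on simulated counts. Named are the 8 genes, listed genes at 20 CPM or more in a library, and the 6 of nearest pattern. Igfbpl1, Gabrr1 and Gabrr2 and the marker, Snd1, Gm37940 and Asph values are added for completeness. Members, lists and alternatives were chosen with earlier results of these data known.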

Additional observations from a re-analysis of the deposited data

How the results depend on the processing

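Over 17 alternatives, 132 fold changes of the 8 genes had an adjusted p; DESeq2 gave none for Lingo2, Nxph1, Lrrc4 and Nkain3, 4 in all. Of the 132, 117 kept their direction and stayed short of the threshold, 14 kept it and passed, and 1 reversed: Lingo2 had -0.19 without controls 1 and 2. All 14 that passed come from limma-voom with sample quality weights or from the fit without control 3, in each of which 7 genes passed. Leaving out 1 library at a time, the genes called ran from 0 to 7 and the features called from 0 to 10231, and without any library but control 3 both counts were 0. The features called were 1503 with DESeq2, 7042 with limma-voom with sample quality weights, and 939 without controls 1 and 2. The cause of the differences between tools was not tested. Scaling by upper quartile or total count moved the median log2 fold change of all features to -0.21 and -0.30, from -0.04 with TMM, and that of Cadps2 to 0.16 and 0.0084, from 0.34. With the replicate block 0 features and 0 of the 8 genes were called (smallest adjusted p of all features 0.229, edgeR), with log2 fold changes of 7.41 for Clvs1, 6.17 for Lingo2, 6.01 for Nxph1 and 5.27 for Nkain3. Same-numbered libraries deviated from their group means with correlations of 0.065, -0.14 and 0.059, and control 2 correlated best with injury 1. Deviations of the controls mostly reflect the split of controls 1 and 2 from control 3. These correlations therefore cannot decide whether same-numbered libraries share an animal or a batch. In controls 1 and 2, 1 count is worth 0.257 and 0.255 CPM, so levels of Lingo2, Nxph1, Nkain3 and Clvs1 there rest on 9 counts or fewer. Per kb of unshared exon, Clvs1 after injury moved from 23.7 to 34.1 CPM. That length was chosen after seeing the data.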
